A study of Rattus norvegicus with 154 samples.

Results

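Ribosomal protein genes encode the protein components of the cytosolic ribosome, which joins a small subunit (Rps genes and Rpsa) and a large subunit (Rpl genes and the stalk gene Rplp0). They were followed here in rat lung after sulfur mustard, bis-(2-chloroethyl) sulfide, an alkylating agent that damages DNA and other molecules. Members were chosen by name alone, as the probe sets whose symbol in the platform's gene table starts with Rpl or Rps and a digit, or is Rplp0, Rplp1, Rplp2 or Rpsa, with the Rps6k kinases left out. This gave 50 probe sets with 1 symbol, for 44 genes, of 15866 probe sets on the array without controls. A further 34 probe sets matched by 1 of several symbols and are counted apart, unnamed.

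The study measured messenger RNA in whole lung on Affymetrix RAE230A arrays. The groups were 1, 3 or 6 mg sulfur mustard, isopropyl alcohol (the vehicle, 0 mg sulfur mustard) and saline (0 mg), each at 30 min, 1 h, 3 h, 6 h and 24 h, which makes 25 groups. There were 77 animals with 2 chips each, 3 animals in 23 groups and 4 in the groups of 6 mg at 30 min and at 1 h. The labels name rat lung and give dose, vehicle, time and chip, with no strain, age, body weight or route. They do not say that each number is a separate rat, so p-values measure only the spread between these numbered samples, called animals below. All 10 lung epithelial markers of the check were measured in every animal. Their lowest values lay between 243.7 for the water channel gene Aqp5 and 4004.5 for the surfactant protein gene Sftpc, with 382 for the transcription factor gene Nkx2-1 and 3299.9 for the club cell gene Scgb1a1. Median intensity per array lay between 67.7 and 100.1.

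Ribosomal protein mRNAs are among the most abundant of any cell and are known to be made and translated in step with each other. In vertebrates many of them start with a C inside a run of pyrimidines, the terminal oligopyrimidine (TOP) tract, through which mTOR signalling controls their translation. Some free ribosomal proteins, among them the products of Rpl5, Rpl11 and Rpl23, are known from human cells to bind Mdm2, the inhibitor of p53, and Rps27l is known there as a target gene of p53.

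The filter on low values kept 47 of the 50 probe sets, for 42 genes, 30 of the large and 17 of the small subunit, and all 34 probe sets with several symbols. The 3 left out were the probe set of Rpl3l, the paralog of Rpl3 known from striated muscle (1.8 to 21.6 over the 77 animals), that of Rpl30 (11.1 to 53.4) and a second probe set of Rpl14 (3.0 to 36.8). Of the 47, 39 lay among the brightest 10% of the 11106 probe sets tested. The highest mean intensities were 4531 for Rps29, 4375 for Rps23 and 3446.5 for Rpl27a, and the lowest among the tested were 48.4 for Rps4y2, 81.1 for a second probe set of Rpl7 and 98.8 for Rps27l. Array intensities of different probe sets are not on one scale, so these values say nothing of which mRNA was more abundant.

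The promoters show a feature that most of the family shares and members that lack it. RefSeq promoters of build GRCr8 were available for 39 of the 44 genes. The 40 bases around the annotated start, from 25 before it to 14 after its first base, are given for the 7 genes called with 6 mg below and for Rplp0, with the longest pyrimidine run near the start in capitals.
Rps27l (chr8:76443633-76443672, plus strand): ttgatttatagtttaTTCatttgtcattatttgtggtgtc
Rpl7l1 (chr9:21695693-21695732, plus strand): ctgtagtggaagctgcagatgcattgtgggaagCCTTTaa
Rpl13a (chr1:104748899-104748938, minus strand): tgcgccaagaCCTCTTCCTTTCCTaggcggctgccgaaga
Rpsa (chr8:128728854-128728893, plus strand): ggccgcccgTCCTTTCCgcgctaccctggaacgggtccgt
Rpl21 (chr12:13386139-13386178, minus strand): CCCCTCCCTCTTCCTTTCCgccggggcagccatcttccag
Rps24 (chr16:96492-96531, plus strand): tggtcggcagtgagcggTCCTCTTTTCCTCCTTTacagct
Rpl23 (chr10:83272170-83272209, minus strand): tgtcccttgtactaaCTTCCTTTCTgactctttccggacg
Rplp0 (chr12:46718376-46718415, minus strand): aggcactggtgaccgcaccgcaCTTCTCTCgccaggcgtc
The capitals mark runs of 3 bases in Rps27l and 5 in Rpl7l1, the paralogs of Rps27 and Rpl7. The run was 8 bases in Rpsa and Rplp0, 10 in Rpl23, 14 in Rpl13a, 17 in Rps24 and 19 in Rpl21. Short runs were not particular to the 2 paralogs. The run was 3 bases in Rpl11, Rpl18, Rpl26 and Rpl41, and 4 in Rps16. It was 5 in Rpl3 and Rpl6 and 6 in Rpl24 and Rps6, while Rps4y2, a paralog of Rps4, had 8.

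Over the 39 genes the longest pyrimidine run touching the 10 bases on either side of the start had a median of 9 bases, against 4 in all 18999 protein-coding promoters of the table. A run of at least 7 stood in 28 of the 39 promoters (71.8%), against 19.0% of all. A C at the annotated start followed by at least 4 pyrimidines was found in 11 of 39 (28.2%), against 2.44% of all. Annotated starts can lie a few bases from the true one, which could move this count. The motif CCGGAA, searched on both strands over 300 bases, was in 35.9% of the members' promoters against 18.6% of all, and GGAAGT in 38.5% against 23.8%. The 2 motifs can overlap in the letters GGAA, and a match is a description of the letters only.

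Members moved together from animal to animal. Taking each animal's deviation from its group mean, the pairwise correlation of the 47 probe sets had a median of 0.52, against 0.0029 for all 11106, over 77 animals that share arrays and scan days. Rps3a (r = 0.95), Rpl19 (0.93) and Rpl23 (0.93) followed the median of the other members most closely. The probe sets of Rpl39 (-0.21), Rps4y2 (-0.17) and Rpl7l1 (-0.17 and 0.22) and 1 probe set of Rps24 (-0.05) did not follow it, and Rps27l stood at 0.43. These are descriptions over animals, with no test.

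For each animal the relative level of the family was taken as the median over the 47 probe sets of the log2 value minus that probe set's mean over all animals. It ran from -0.33 to 0.46 with an SD of 0.17. Before any dose is compared, it has to be said that it moved with the days on which the chips were scanned. The 12 animals scanned on day 5 (chip A) and day 6 (chip B) had a median of 0.22 and 10 of them lay above 0. Of the 16 animals of days 9 and 10, 14 lay above 0, with a median of 0.09. Of the 9 animals of days 11 and 12, 1 lay above 0, with a median of -0.18. The highest of all 77 values, 0.46, was a saline animal at 24 h scanned on days 5 and 6. Among control animals alone (saline and isopropyl alcohol), the median was 0.11 on days 5 and 6 (n = 6) and -0.19 on days 11 and 12 (n = 6). A scan day is a day of scanning only. The labels do not say how it relates to exposure or extraction.

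**Figure D1:**
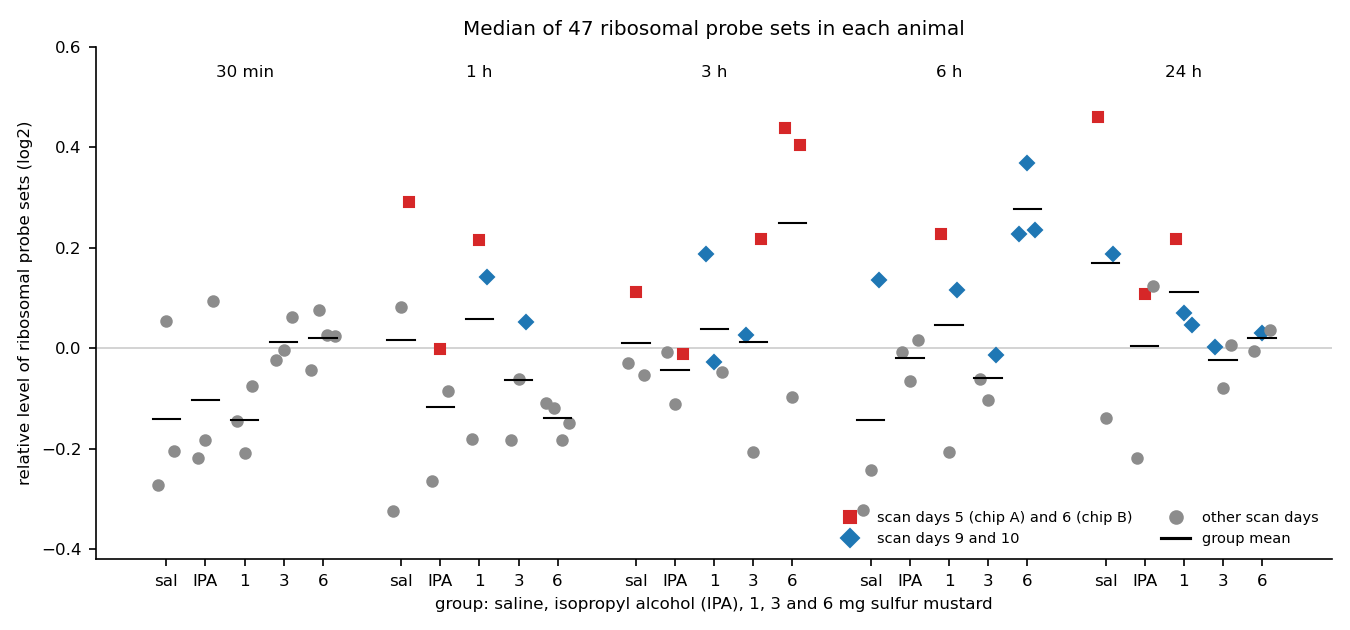
Relative level of the 47 ribosomal probe sets (log2, y axis) in each of the 77 animals, by time and dose, with group means as bars and 2 pairs of scan days marked by colour and shape. The 3 animals of 6 mg at 6 h were all scanned on days 9 and 10, and of the 3 animals of 6 mg at 3 h the 2 high ones (0.44 and 0.40) were scanned on days 5 and 6 and the low one (-0.10) on others.

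The question of the 6 mg comparisons is how these mRNAs changed over time against isopropyl alcohol. At 3 h and 6 h the family as a whole lay slightly above isopropyl alcohol. The median log2 fold change was 0.31 at 3 h (1.24-fold) and 0.28 at 6 h (1.21-fold). At each of these times 46 of 47 probe sets were positive, where 43.6% and 45.9% of all probe sets were. Members moved together from animal to animal, so counts of their signs are not separate evidence. Isopropyl alcohol against saline gave 30, 6, 11, 40 and 3 of 47 positive from 30 min to 24 h. In the same order 1 mg gave 17, 42, 41, 36 and 39, and 3 mg gave 45, 28, 35, 11 and 13. With 6 mg at 30 min, 1 h and 24 h the medians were 0.13, -0.05 and -0.01, and 40, 17 and 21 members were positive. The medians of all 11106 probe sets were -0.02, -0.01, -0.05, -0.04 and -0.01 from 30 min to 24 h. Few single members passed the test, and none fell. With limma and an adjusted p under 0.05, no member was higher before 3 h, 3 were higher at 3 h, then 5 at 6 h, and 1 at 24 h.

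Read against all probe sets, these counts are small. At 30 min 0% of all probe sets passed in either direction, and at 1 h 0.117% were higher and 0.072% lower, where 1 and 2 members had an unadjusted p under 0.05. At 3 h 3.84% of all probe sets were higher, against 3 of 47 members, and 9.1% were lower, against 0 members. At 6 h the shares of all probe sets were 7.17% higher, against 5 of 47, and 11.1% lower, against 0. At 24 h they were 2.71% higher, against 1 of 47, and 4.02% lower, against 0. Members with an unadjusted p under 0.05 in either direction numbered 18 at 3 h, 15 at 6 h and 1 at 24 h. Of all 11106 probe sets, 2844, 3392 and 1959 had one at these times. The members' share of higher calls is thus near that of all probe sets at each time. Of the probe sets with several symbols, 3 of 34 were higher at 3 h and 1 at 6 h, with medians of 0.34 and 0.26, and none was lower.

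Groups that did not overlap give a comparison without the test, and at 6 h its result differed from that of the calls. At 6 h 31 of the 47 members had all 3 animals of 6 mg above all 3 of isopropyl alcohol, where 18.3% of all probe sets did. At 3 h this held for 3 members, where 7.54% of all probe sets did, and at 24 h for 3, where 11.2% did. For the 4 animals of 6 mg at 30 min and at 1 h it held for 6 and 1 members, against 3.13% and 5.5% of all. In order of time 1 mg gave 0, 9, 3, 1 and 7, against 3.74% to 7.63% of all probe sets. With 3 mg these were 6, 0, 3, 1 and 3, against 3.18% to 6.97%. Members moved together, so these counts are not separate evidence. All 3 animals of 6 mg at 6 h, and no animal of isopropyl alcohol at that time, were scanned on days 9 and 10. The part of scan days in the 31 was not tested. Both subunits had similar medians. The 17 small-subunit probe sets stood at 0.32 at 3 h and 0.27 at 6 h, and the 30 large-subunit ones at 0.30 and 0.29. In whole lung, more of these mRNAs per cell and more of the cells that hold much of them cannot be told apart.

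**Figure D2:**
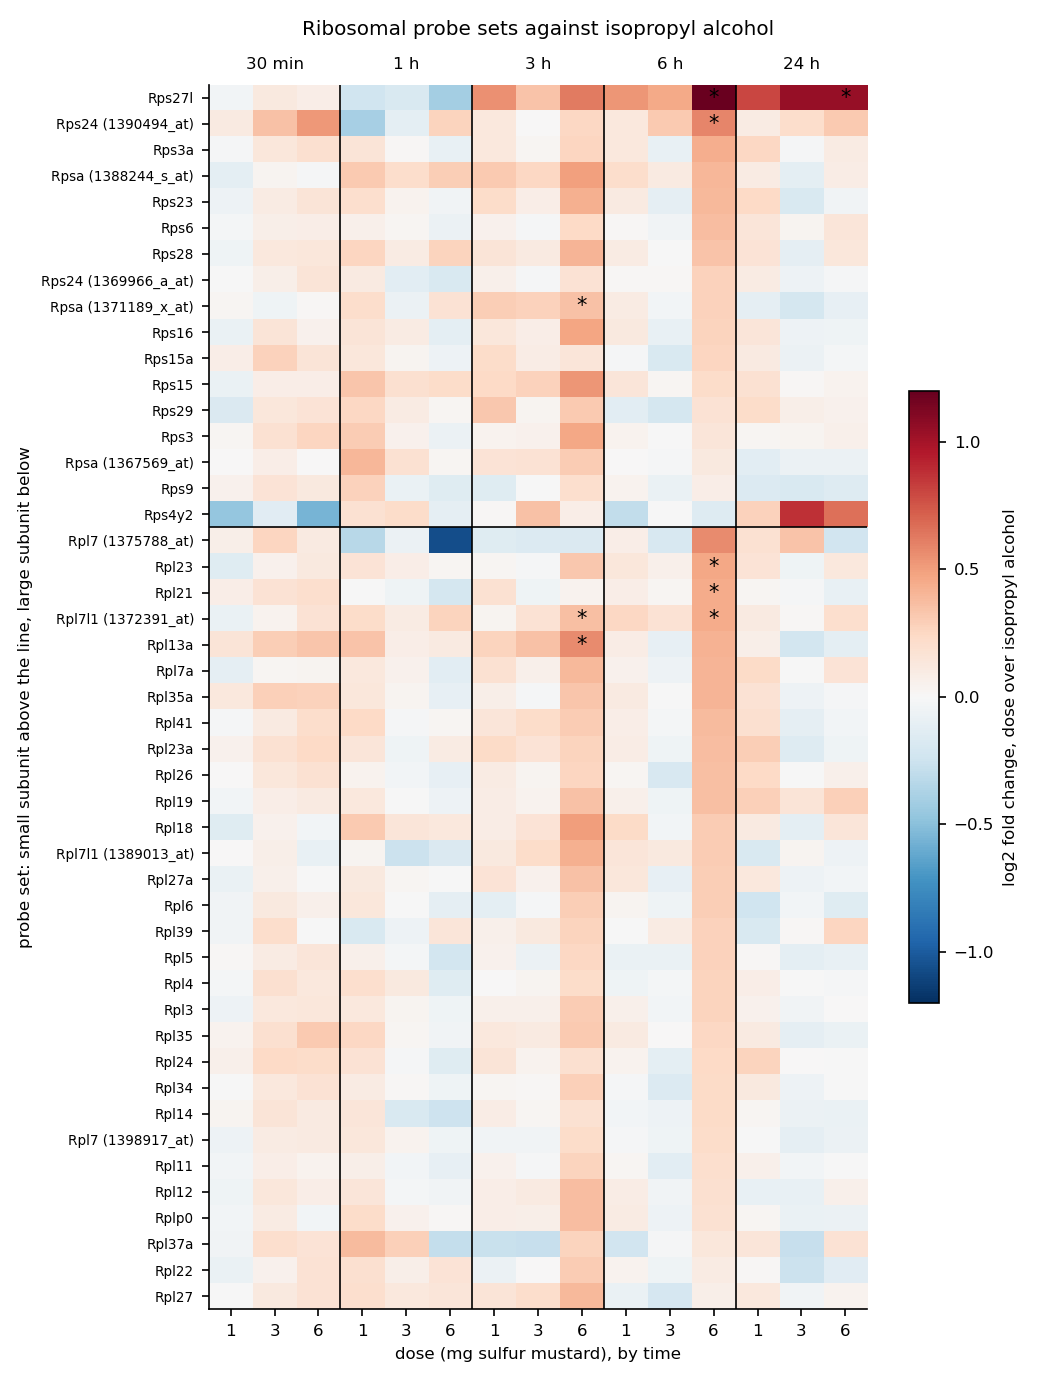
Log2 fold change of each of the 47 tested probe sets (rows, small subunit above the line) for 1, 3 and 6 mg over isopropyl alcohol at each time (columns). Stars mark an adjusted p under 0.05 over all probe sets. Rps27l has the highest value at 6 h (1.19) and at 24 h (1.04) with 6 mg.

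**Figure D3:**
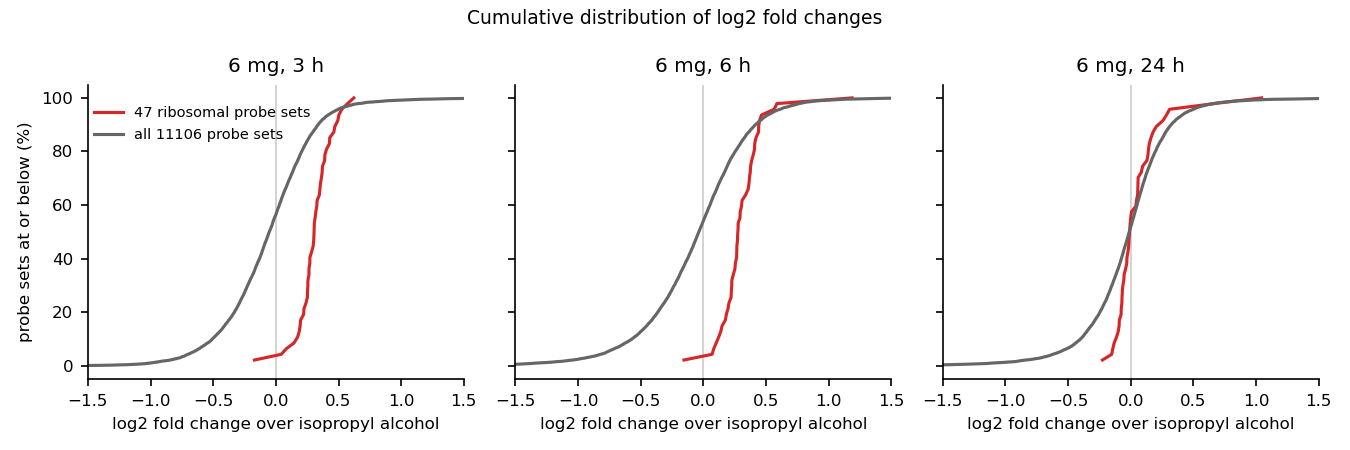
Cumulative share of probe sets (y axis, %) at or below each log2 fold change of 6 mg over isopropyl alcohol, for the 47 ribosomal probe sets and for all 11106 tested. The ribosomal curve lies to the right at 3 h and 6 h, with medians of 0.31 and 0.28, and crosses the curve of all probe sets near 0 at 24 h, where it is the steeper of the 2 and its median is -0.01.

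The level at 3 h rested on 2 of 3 animals. The relative level was 0.44, -0.10 and 0.40 in the 3 animals of 6 mg, against -0.01, -0.11 and -0.01 in isopropyl alcohol. The first and the third animal of 6 mg stood above all controls of that time, and the second within them. Without the second animal the median was 0.48 and 19 members were called. Without the third animal it was 0.22 and 0 were called with limma. Leaving out the first or the second animal of isopropyl alcohol also gave 0 calls, and leaving out the third gave 5. The shares of all probe sets called in these fits are not given here. Within scan days 5 and 6, the 2 animals of 6 mg exceeded the 1 animal of isopropyl alcohol by a median of 0.43, and 45 of 47 probe sets were positive. Within days 1 and 8, the 1 animal of 6 mg differed from the 1 of isopropyl alcohol by a median of -0.08, and 11 of 47 were positive. With the pair of scan days as a block, the median was 0.20 at 3 h and 1 member was called. In that fit 3.97% of all probe sets were higher and 9.37% lower. At the other times with both groups on 1 pair of days, the median difference was 0.24 at 30 min on days 17 and 16 (2 animals each), -0.05 on days 15 and 16 (1 each), and 0.20 at 24 h on days 4 and 7 (1 each).

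At 6 h the 3 animals of 6 mg had relative levels of 0.23, 0.37 and 0.23, against -0.01, -0.06 and 0.02 in isopropyl alcohol. The groups did not overlap. All 3 animals of 6 mg were scanned on days 9 and 10 and no animal of isopropyl alcohol at 6 h was, so no difference within a pair of scan days exists. The saline animal of 6 h on the same days stood at 0.14, while the 2 other saline animals of that time stood at -0.32 and -0.24. The 3 mg animal on these days stood at -0.01 and the 1 mg animal at 0.12. With the pair of scan days as a block, the median was 0.12 at 6 h and 1 member, Rpl7l1, was called. In that fit 3.82% of all probe sets were higher and 9.63% lower. After quantile normalization the medians were 0.02 at 3 h and 0.10 at 6 h, where the median of all probe sets was 0.0040 at 3 h. With array weights, which give less weight to arrays far from their group, the median was 0.16 at 3 h and 0.28 at 6 h.

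**Figure D4:**
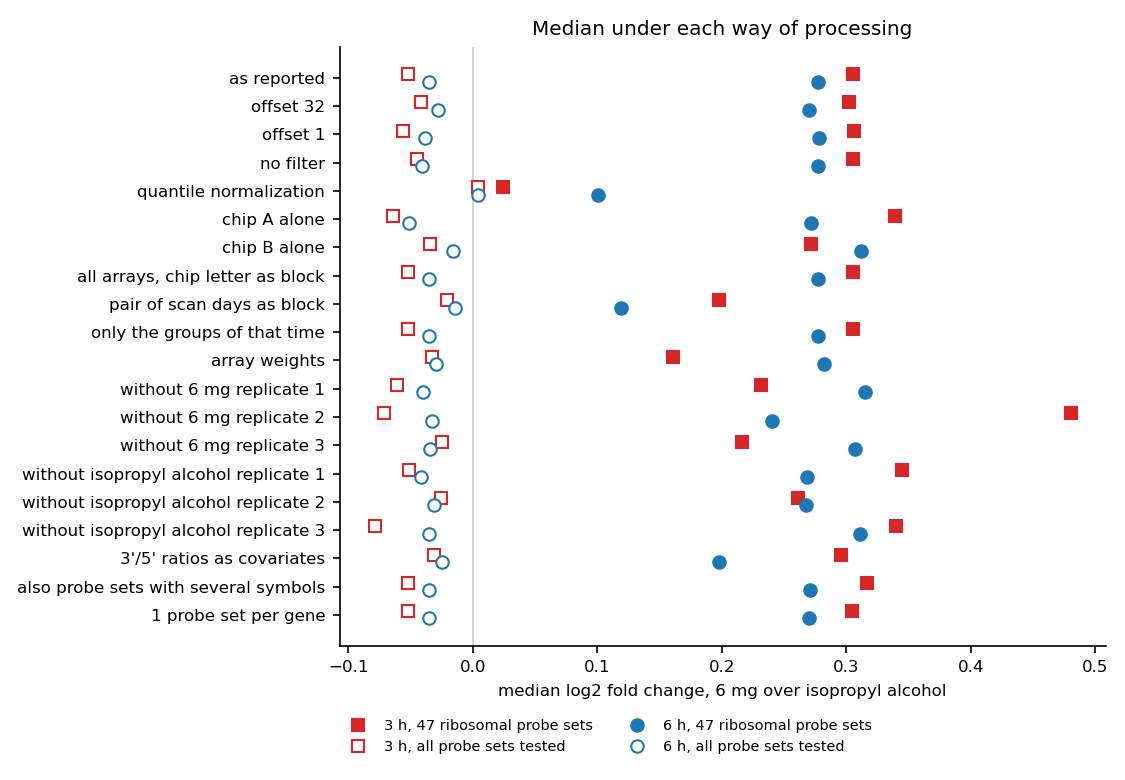
Median log2 fold change of 6 mg over isopropyl alcohol at 3 h and 6 h (x axis) for the ribosomal probe sets (filled) and for all probe sets tested (open), under each way of processing (rows). Quantile normalization gave 0.02 and 0.10, the pair of scan days as a block 0.20 and 0.12, and array weights 0.16 and 0.28, against 0.31 and 0.28 as reported.

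Rps27l, the small-subunit paralog, was the member with the highest fold change, and it was higher at 6 h and at 24 h. At 6 h its intensity was 162, 257 and 135 in the 3 animals of 6 mg, against 73.2, 78.2 and 72.0 in isopropyl alcohol. Every animal of 6 mg lay above every animal of isopropyl alcohol. The log2 fold change was 1.19 ± 0.31 (SE), or 2.28-fold, with an adjusted p of 0.00398 (limma, n = 3 each). The saline animal of 6 h scanned on the same days had 153.75, between the values of 6 mg, while the other saline animals had 63.0 and 57.15. The highest control of all times was 165, in isopropyl alcohol at 1 h. With the pair of scan days as a block, the value at 6 h was 0.52 with an adjusted p of 0.239. Without the second animal of 6 mg it was 0.93 with an adjusted p of 0.0653.

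At 24 h Rps27l had 185, 224 and 83.2 in 6 mg, against 73.6, 78.5 and 59.1 in isopropyl alcohol. The third animal of 6 mg was the low one, yet still above isopropyl alcohol. The log2 fold change was 1.04 ± 0.31 (SE), with an adjusted p of 0.0257. With the pair of scan days as a block it was 0.98, with an adjusted p of 0.0128. Within days 4 and 7, 1 animal of 6 mg exceeded 1 animal of isopropyl alcohol by 1.25. Leaving out the first or the second animal of 6 mg ended the call, with adjusted p-values of 0.148 and 0.236 (limma). Leaving out the first or the third animal of isopropyl alcohol also ended it, with 0.0597 and 0.126.

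At 24 h the lower doses of sulfur mustard also had Rps27l values above isopropyl alcohol. From isopropyl alcohol up, the group means were 70.4 ± 10.1 in isopropyl alcohol, 128 ± 13 at 1 mg, 153 ± 31 at 3 mg and 164 ± 73 at 6 mg (SD, n = 3 each). All 9 animals with sulfur mustard, from 83.2 to 224, lay above the 3 of isopropyl alcohol, and the saline animals at 81.7, 77.5 and 112.8 overlapped with 6 mg. Scan days went with these values. Those of days 9 and 10 were 135.25 and 135.75 at 1 mg, the highest animal of 3 mg (188.6), the highest of 6 mg (224) and the highest of saline (112.8), and no animal of isopropyl alcohol at 24 h was scanned then. When the pair of scan days was a block, 1 mg gave 0.36, 3 mg 0.81 and 6 mg 0.98, and the trend over dose was 0.16 per mg with an adjusted p of 0.00703 (limma). Against isopropyl alcohol, 3 mg gave 1.04, the same as 6 mg to 2 decimals, with an adjusted p of 0.172, and 1 mg gave 0.80 with an adjusted p of 0.642 (limma). Neither passed the test. The effect of 6 mg on Rps27l differed between the 5 times by the F-test (F = 5.03, adjusted p = 0.0204). It was the only member to do so, 1 of 47, where 11.4% of all probe sets did. At 30 min, 1 h and 3 h its log2 fold changes were 0.08, -0.40 and 0.62, none of which passed the test.

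**Figure D5:**
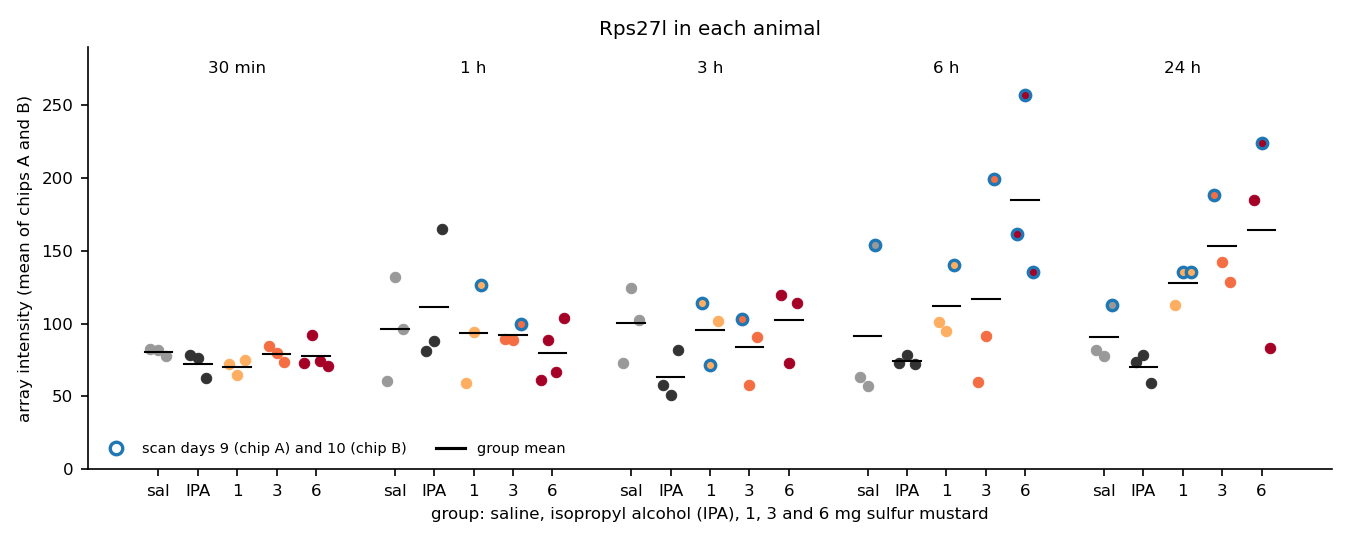
Rps27l intensity (mean of chips A and B, y axis) in each animal by time and dose, with group means as bars and animals of scan days 9 and 10 ringed. At 6 h the 6 mg animals lie between 135 and 257 and the isopropyl alcohol animals between 72.0 and 78.2, with 1 ringed saline animal at 153.75.

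Known p53 target genes serve as neighbours of Rps27l. At 6 h Mdm2, the p53 inhibitor, Cdkn1a, the cell cycle inhibitor p21, and Ccng1, cyclin G1, were all higher with 6 mg, by log2 fold changes of 1.54 ± 0.29, 2.49 ± 0.40 and 2.41 ± 0.20 (SE, adjusted p = 4.89e-05, 3.49e-06 and 4.24e-13, limma). At 24 h they stood at 2.26, 3.88 and 2.89, and all 3 passed again. At 3 h Cdkn1a had 382, 259 and 1831 in 6 mg, against 229, 227 and 196 in isopropyl alcohol, and Ccng1 had 286, 334 and 867, against 237, 238 and 266. The third animal of 6 mg was far above the others in both. Their log2 fold changes of 1.36 and 0.81 passed with it, and stood at 0.53 and 0.32 without it (adjusted p = 0.634 and 0.487, limma). Mdm2 stood at 0.76 at 3 h with an adjusted p of 0.0672, and at 0.90 with an adjusted p of 0.00887 with the pair of scan days as a block.

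Rpl7l1, the paralog of Rpl7, was the other member called at 2 times. Its probe set had 294, 329 and 299 at 6 h in 6 mg, against 258, 215 and 201 in isopropyl alcohol, without overlap. The log2 fold change was 0.44 ± 0.12 (SE), with an adjusted p of 0.00722, and 0.48 with an adjusted p of 0.0109 when the pair of scan days was a block. At 3 h it had 221, 279 and 367 in 6 mg, against 225, 217 and 213 in isopropyl alcohol. The first animal of 6 mg lay within the controls, and the log2 fold change was 0.36 ± 0.12 (SE) with an adjusted p of 0.0383. Of the fits that left out 1 of the 6 animals, 5 ended the 3 h call, down to 0.18 without the third animal of 6 mg, and 2 ended the 6 h call, those without the second animal of 6 mg or the third of isopropyl alcohol, with adjusted p-values up to 0.0574. The second probe set of Rpl7l1 did not pass, at 0.43 at 3 h and 0.30 at 6 h (adjusted p = 0.129 and 0.269).

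Rpl13a, a large-subunit protein known in human monocytes also to silence translation of inflammatory mRNAs once released, had 3120, 1717 and 3142 at 3 h in 6 mg, against 1724, 1507 and 1952 in isopropyl alcohol. The second animal of 6 mg lay within the controls. The log2 fold change was 0.57 ± 0.19 (SE), with an adjusted p of 0.0349, and 0.42 with an adjusted p of 0.0636 with the pair of scan days as a block. Of the fits that left out 1 of the 6 animals, 4 ended the call, with adjusted p-values up to 0.372 without the third animal of 6 mg. The 2 that kept it left out the second animal of 6 mg or the third of isopropyl alcohol. At 6 h it was 0.42 with an adjusted p of 0.119.

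Rpsa encodes a small-subunit protein also known as the laminin receptor precursor. Of its 3 probe sets, the one with the suffix _x was called at 3 h, and had 438, 367 and 582 in 6 mg, against 361, 337 and 366 in isopropyl alcohol. The groups did not overlap, and the second animal of 6 mg was just above the controls. The log2 fold change was 0.35 ± 0.12 (SE), with an adjusted p of 0.0464. Of the fits without 1 animal, 5 of 6 ended the call, down to 0.17 without the third animal of 6 mg, and the one without the second animal of 6 mg kept it. The 2 other probe sets of Rpsa gave 0.31 and 0.49, with adjusted p-values of 0.185 and 0.0634. The suffix marks a probe set with probes that can match other transcripts, and ribosomal protein genes have many processed pseudogenes.

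At 6 h Rpl21 and Rpl23, of the large subunit, and Rps24, of the small one, made up the rest of the called members. Rpl21 had 1175, 1194 and 1113 in 6 mg, against 806, 806 and 933 in isopropyl alcohol, and Rpl23 had 3610, 4444 and 3829, against 2960, 2868 and 2734. In neither did the groups overlap. Their log2 fold changes were 0.45 ± 0.15 and 0.46 ± 0.17 (SE, adjusted p = 0.0269 and 0.0422), and 0.09 and 0.27 with the pair of scan days as a block. The probe set of Rps24 with a mean intensity of 107 had 131, 171 and 169 in 6 mg, against 103, 107 and 91.5 in isopropyl alcohol, also without overlap. It stood at 0.59 ± 0.21 (SE, adjusted p = 0.0366), and at 0.43 with scan days as a block. The other probe set of Rps24 gave 0.28 with an adjusted p of 0.173. Leaving out the second animal of 6 mg ended all 5 calls of 6 h, with adjusted p-values from 0.0552 for Rpl7l1 to 0.195 for Rpl23. Over all 6 fits without 1 animal, 4 ended the call of Rpl21 and 5 those of Rpl23 and Rps24, with log2 fold changes from 0.38 to 0.71.

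Other members with known functions outside the ribosome did not pass. Rps6, the substrate of the S6 kinases downstream of mTOR, gave 0.24 at 3 h and 0.37 at 6 h (adjusted p = 0.326 and 0.0755). Its 6 h values were 3817, 4503 and 4088 in 6 mg, against 3107, 2996 and 3456 in isopropyl alcohol, without overlap. Rpl5 and Rpl11, which bind the 5S ribosomal RNA and Mdm2, gave 0.25 and 0.27 at 3 h and 0.27 and 0.20 at 6 h, with adjusted p-values from 0.219 to 0.352. For Rpl5 at 6 h, 6 mg had 2971, 3862 and 3190, against 2586, 2500 and 3202 in isopropyl alcohol, and the groups overlapped. Rplp0, at the base of the stalk that recruits translation factors, gave 0.37 and 0.18 at 3 h and 6 h. Rps3, which is known also to act on damaged DNA, gave 0.46 and 0.15, and Rpl22 gave 0.30 and 0.10. None of these 3 passed at either time, with adjusted p-values from 0.10 to 0.676. The 3 brightest members, Rps29, Rps23 and Rpl27a, gave 0.32, 0.43 and 0.36 at 3 h and 0.18, 0.39 and 0.29 at 6 h, and none passed.

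By the F-test over times, the members next to Rps27l were 1 probe set of Rpl7 (F = 3.30, adjusted p = 0.103), Rpl21 (F = 3.15, adjusted p = 0.117), Rpl14 (F = 2.34, adjusted p = 0.239) and the Rpsa probe set with the suffix _x (F = 2.30, adjusted p = 0.247), none of which passed. That probe set of Rpl7 had 41.0, 29.5, 56.8 and 38.1 at 1 h in 6 mg, against 90.9, 74.9 and 114 in isopropyl alcohol. The groups did not overlap. Its log2 fold change of -1.06 ± 0.32 (SE) had an adjusted p of 0.156, and the other probe set of the same gene gave -0.05. Rps4y2, a paralog of Rps4, gave 0.67 at 24 h with an adjusted p of 0.292.

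At 1 and 3 mg, no member passed against isopropyl alcohol at any of the 5 times (limma, adjusted p under 0.05). The share of all probe sets that passed was 0% at 30 min and at 1 h with either dose and at 3 h with 3 mg, and 0.018% at 3 h with 1 mg. At 6 h it was 0.009% with 1 mg and 1.68% with 3 mg, and at 24 h 0.333% with 1 mg and 0.504% with 3 mg. In order of time, the members with an unadjusted p under 0.05 numbered 0, 1, 1, 1 and 1 with 1 mg and 0, 0, 1, 0 and 2 with 3 mg. Of all 11106 probe sets, 114, 402, 978, 457 and 668 had one with 1 mg. With 3 mg these were 145, 363, 508, 1013 and 619. The medians ran from -0.03 to 0.16 with 1 mg and from -0.06 to 0.12 with 3 mg. At 6 h, where 6 mg gave 0.28, 1 mg gave 0.06 and 3 mg gave -0.04. The doses of 1 time were set against the same animals of isopropyl alcohol.

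Isopropyl alcohol against saline gave 0 calls among the members at each time. Of all probe sets 0.027%, 0%, 0.009%, 0.018% and 0% passed from 30 min to 24 h, and 4 members had an unadjusted p under 0.05 at 6 h and 0 at the other times (limma). Of all 11106 probe sets, 226, 189, 591, 1273 and 317 had one, in order of time. The members' medians were 0.03, -0.14, -0.08, 0.12 and -0.17 over the 5 times. These differences between groups of control animals reach up to 0.17 in size, against 0.31 and 0.28 for 6 mg at 3 h and 6 h. Both medians of 6 mg were smaller with scan days as a block and after quantile normalization, as given above. Single control animals ran from -0.33 to 0.46 in relative level.

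The linear trend over 0, 1, 3 and 6 mg, as log2 per mg, was positive and called for Rpl7l1 (0.06) and Rpl13a (0.08) at 3 h, 2 of 47, where 3.23% of all probe sets rose with dose. At 6 h it was called for Rps27l (0.17), Rpl7l1 (0.06), Rps24 (0.10), Rpl21 (0.07) and Rpl23 (0.07), 5 of 47, where 8.01% rose. No member passed at 30 min, 1 h or 24 h, where 0%, 0.477% and 8.11% of all probe sets did in either direction, and 3, 5 and 3 members had an unadjusted p under 0.05. Of all 11106 probe sets, 664, 1622 and 2087 had one at these times. Rps27l at 24 h stood at 0.14 with an adjusted p of 0.0526, and passed with scan days as a block, as above. With the pair of scan days as a block, 2 trend calls were made, against 7 without it.

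Genes that act with the ribosomal proteins were described from lists chosen for this purpose, each gene by its brightest probe set. Ribosome biogenesis factors process ribosomal RNA and assemble subunits. Of 54 measured, 7 were higher and 1 lower at 3 h and 22 higher and 0 lower at 6 h with 6 mg, with medians of 0.24 and 0.33. Over all probe sets, 3.84% passed upward and 9.1% downward at 3 h, and 7.17% upward and 11.1% downward at 6 h. Blocked by the pair of scan days, the list had 10 higher and 1 lower at 3 h and 12 higher and 1 lower at 6 h, where 3.82% of all probe sets were higher. At 24 h 0 passed with limma in either fit. Higher at 6 h were Taf1c, of the RNA polymerase I initiation factor (0.85, adjusted p = 2.83e-05), Nip7, of pre-60S assembly (0.78, adjusted p = 0.000201), and Gnl3, nucleostemin (0.89, adjusted p = 0.000552). The helicase Ddx10 was the 1 lower at 3 h (-0.99, adjusted p = 0.0436). Counted the same way, 1 of 42 ribosomal protein genes was higher at 3 h and 3 of 42 at 6 h.

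Other mRNAs with TOP tracts, for translation factors and partners, numbered 14. Their medians with 6 mg were 0.32 at 3 h and 0.18 at 6 h, and 1 passed, Hnrnpa1 at 6 h (1.14, adjusted p = 0.000114). Of all probe sets, 3.84% were higher at 3 h and 7.17% at 6 h, so 1 of 14 at 6 h is near that share. Blocked by the pair of scan days, the medians were 0.21 and 0.12. In that fit 1 of the 14 was higher at each time, where 3.97% and 3.82% of all probe sets were. Mitochondrial ribosomal proteins, which are built into another ribosome, numbered 71, with medians of 0.10 at 3 h and 0.08 at 6 h. Of these 2 were higher and 1 lower at 3 h, and 4 higher and 1 lower at 6 h, shares near or under those of all probe sets in each direction. Blocked by the pair of scan days, 0 were higher and 1 lower at 6 h (limma). Those called at 6 h included Mrpl53 (0.37, adjusted p = 0.0196) and Mrpl48 (-0.44, adjusted p = 0.0353). None passed at 24 h.

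Brightness and gene length went with the values too. Bright probe sets other than ribosomal ones leaned the same way with 6 mg. The other 1040 probe sets among the brightest 10% had medians of 0.12 at 3 h and 0.06 at 6 h, against 0.31 and 0.28 for the members. Short genes did so too. By gene span in the RefSeq GRCr8 annotation, 40 of the 42 ribosomal genes lay in the lowest of 4 equal bins of genes, with a median span of 3582 bp against 22637 bp for all. The 1968 other genes of that bin had medians of 0.17 at 3 h and 0.07 at 6 h, and the bin of longest genes had -0.31 at both times. The part of brightness or gene span in the members' medians was not tested.

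Markers of T, NK and B cells and the group means of the measures of RNA quality differed between 6 mg and isopropyl alcohol. The summed intensity of 8 T and NK cell markers was 493 to 619 in 6 mg at 6 h, against 698 to 885 in isopropyl alcohol, and at 24 h 243 to 315, against 778 to 819. All 8 were lower at 24 h and 1 at 6 h. The 2 B cell markers summed to 56.15 to 97.95 in 6 mg at 6 h, against 129.5 to 179.6 in isopropyl alcohol, and both were lower at 6 h and 24 h. For neutrophils (4 markers), macrophages (2) and erythroid cells (3), 1 neutrophil marker was lower at 24 h and no other passed at 3, 6 or 24 h. Of 10 lung epithelial markers 1 was lower at 24 h, and of 5 endothelial ones 1 was higher and 2 lower at 6 h and 2 lower at 24 h. For all probe sets the shares at 6 h were 7.17% (higher) and 11.1% (lower), and 4.02% lower at 24 h. Erythroid markers, which come with blood, summed to 2129 to 3131 in 6 mg at 6 h, against 1162 to 1789 in isopropyl alcohol, and none was at 0. Their part in the ribosomal values was not tested.

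The ratio of the 3′ over the 5′ probe set of a control transcript (log2) is a measure of RNA integrity. Its group means were higher with 6 mg than with isopropyl alcohol at all 5 times, for both transcripts. The ranges overlapped except for beta-actin at 6 h, at 1.33 to 1.80 against 0.43 to 1.04. For beta-actin the ratio averaged 1.64 in 6 mg at 6 h, against 0.73 in isopropyl alcohol, and 1.01 against 0.85 at 3 h. For GAPDH it averaged 0.94 against 0.61 at 6 h, and 1.04 against 0.71 at 3 h. With both ratios as covariates, the members' medians were 0.30 at 3 h and 0.20 at 6 h, and 1 and 3 members were called. At 24 h the ratios were 1.45 against 0.85 for beta-actin and 1.22 against 0.75 for GAPDH. At 1 h, where the members' median was -0.05, they were 1.56 against 0.91 and 1.34 against 0.64. At 30 min they were 0.44 against 0.37 and 0.37 against 0.18. On scan days 11 and 12, saline animals 1 and 2 of 1 h had relative levels of -0.33 and 0.08. Their GAPDH ratios were 0.10 and 0.92. The first 3 mg animal of 6 h, on the same days, had a level of -0.06 and a ratio of 0.31. The third isopropyl alcohol animal of 1 h, also on those days, had a level of -0.09 and a ratio of 0.96. These are examples from the 9 animals of those days. How the level followed the ratios over animals was not tested, nor was their part in the members' medians.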

How the data were processed

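The deposited table held linear intensity values of 15923 probe sets on 2 arrays for each of 77 animals, as scaled by the authors; the program used to summarise probes is not given in the sources used here. All columns matched a sample and no arrays were identical. After removal of 57 control probe sets, an offset of 7 was added and log2 taken, which understates changes of dim probe sets. Chips A and B of an animal were averaged, and the lowest 30% of probe sets by mean log2 value were left out. limma 3.58.1, with statmod 1.5.0 under R 4.3.3, estimated 1 mean per group (25 groups) over all 11106 probe sets, with two-sided moderated tests and Benjamini-Hochberg adjustment over all of them in each comparison at 0.05. The fit was tested on simulated data. Scan days came from the deposited scan records, with 17 days in 12 pairs.

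Members, lists and the rule for named genes were chosen with earlier results of these data known. Named were called members (up to 8 per direction), genes of known extraribosomal function, the brightest and dimmest, and the 5 highest in the F-test. A gene with several probe sets was represented by its brightest. Genes matched RefSeq (GRCr8) by gene ID or symbol. Alternatives were offset, filter, quantile normalization, each chip, all arrays with chip letter as block, scan days as block, groups of 1 time, array weights, several-symbol probe sets, 1 probe set per gene, each animal left out and, chosen after seeing the data, 3′/5′ ratios and, for gene lists and p53 targets, scan days as block and each animal left out. Protein sequences were not used here.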

Additional observations from a re-analysis of the deposited data

Results flagged for a closer look

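Of 16 checks for a stray animal, made in the 2 groups of 4 for the relative level and the 7 probe sets called with 6 mg, 3 found one, all in the same animal. In the second animal of 6 mg at 30 min, the Rps24 probe set with a mean intensity of 107 was far above the 88.5 to 96.8 of the other 3 animals (gap over range 0.874). Rpl21 had 999 there, against 882 to 894 (0.896), and Rpl23 had 3667, against 2950 to 3036 (0.881). The critical value is 0.829, and about 1 in 20 such checks exceeds it by chance. The relative level of that animal, 0.08, was not apart from the others of its group.

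The effect of 6 mg on Rps27l differed between times, with an adjusted p of 0.0204 (limma F-test). With chip A alone no member differed between times. With all arrays and chip letter as block 3 did, and with array weights 2.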

How the results depend on the processing

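Calls among the 47 members with 6 mg numbered 0, 0, 3, 5 and 1 from 30 min to 24 h as reported, with limma. With all arrays in the fit and chip letter as replicate block (animal as random block), they were 13 at 3 h, 11 at 6 h and 1, lower, at 1 h, and 3 members differed between times. Chips A and B come from the same animal, so this block pairs chips and not animals. With the pair of scan days as a block they were 1 at 3 h and 1 at 6 h, and 2 for the trend over dose against 7. Quantile normalization gave 1, 3 and 2 calls at 3, 6 and 24 h, and medians of 0.025 at 3 h and 0.10 at 6 h. At 3 h, 0 calls were made with no filter, with chip B alone, with only the groups of that time or with array weights (median 0.16), 1 with the 3′/5′ ratios as covariates or with 1 probe set per gene, and 6 with several-symbol probe sets added. At 6 h, 3 were made with no filter, with chip B, with the 3′/5′ ratios or with 1 probe set per gene, 2 with chip A, 1 with only the groups of that time and 18 with array weights. Differences between times were called for 0 members with chip A and 2 with array weights. Leaving out 1 animal gave 0 to 19 calls and medians of 0.22 to 0.48 at 3 h, 0 to 4 calls and medians of 0.24 to 0.32 at 6 h, and 0 to 1 calls at 24 h. Low doses and isopropyl alcohol against saline kept 0 calls with offset 32, quantile normalization and scan days as block. No log2 fold change of a called gene changed sign under the alternatives run. Why counts moved was not tested. Except for scan days as a block, the shares of all probe sets called under each alternative are not given here. These counts thus describe the members alone. With 3 animals in most groups, the number of arrays limits precision.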
